A study of Homo sapiens with 6 samples.

Results

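The 10 catalytically active dual-specificity MAP kinase phosphatases (DUSP1, DUSP2, DUSP4, DUSP5, DUSP6, DUSP7, DUSP8, DUSP9, DUSP10 and DUSP16) were examined in SW480, an established cell line grown from a human colon adenocarcinoma. They were taken as a named gene family, by gene symbol, and every probe set that the platform annotation assigns to a single symbol of the family was used. This gave 22 probe sets, of 54613 in all, for all 10 genes, of 19775 genes with such a probe set. The arrays were Affymetrix HG-U133 Plus 2.0, on which a probe set is a group of short oligonucleotides that together read a transcript. RNA came from 3 samples whose labels say that CPEB3 was overexpressed, CPEB3 being a regulator of translation that binds cytoplasmic polyadenylation elements of mRNAs, and from 3 samples of a negative control, NC. Cells of both groups were transfected and kept in serum-containing medium. The titles call the 3 samples of each group biological replicates. The labels give no construct, time after transfection or day, and do not say how the replicates were separated, so the tests rest on the spread between the 3 samples of a group.

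MAP kinases carry signals from growth factor receptors and stress to the nucleus, and they are active only while a threonine and a tyrosine of their activation loop are both phosphorylated. The DUSP phosphatases remove both phosphates and so switch ERK, JNK and p38 off. Many DUSP genes are themselves transcribed in response to MAP kinase activity, which makes them feedback inhibitors. The family is usually divided into inducible nuclear enzymes (DUSP1, DUSP2, DUSP4 and DUSP5), cytoplasmic enzymes selective for ERK (DUSP6, DUSP7 and DUSP9) and enzymes that prefer JNK and p38 (DUSP8, DUSP10 and DUSP16).

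The arrays labelled CPEB3 held lower levels of DUSP5, DUSP1 and DUSP10, by 1.76-fold to 2.03-fold at the most affected probe set of each gene, and smaller falls of DUSP6 and DUSP7. The other members, DUSP2, DUSP4, DUSP8, DUSP9 and DUSP16, had no probe set past the threshold. Of the 22 probe sets, 6 were lower, 0 were higher and 16 did not pass (limma, Benjamini-Hochberg adjusted p under 0.05 over all probe sets). Among all probe sets 7.86% were lower and 6.59% higher. At an unadjusted p under 0.05, 12 member probe sets were lower and 1 was higher. The share of all probe sets or genes at that unadjusted level was not counted. Counts at that level, here and below, therefore have no background to be read against. The 3 values of each group lay apart in 14 of the 22, with 12 lower and 2 higher, whereas 14.9% of all probe sets lay apart and lower and 17.1% apart and higher. The median log2 difference of the 22 was -0.17, beside 0.02 for all probe sets.

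All values are log2 of the deposited normalized intensity, and a difference is the arrays labelled CPEB3 minus those labelled NC. Array medians lay between 3.89 and 3.93, and arrays of 1 group correlated with r of 0.997 to 0.998, against 0.991 to 0.992 between groups, probe sets not being independent replicates. CPEB3 mRNA did not follow the labels, as no CPEB3 probe set was higher past the threshold. At probe set 205773_at it was 2.39, 2.08 and 2.47 in replicates 1, 2 and 3 of the arrays labelled CPEB3 and 3.99, 3.59 and 3.68 in those labelled NC. There only NC replicate 1 lay above the array medians, and the alternative without dim probe sets removes this probe set. At 243651_at, the brightest CPEB3 probe set, the level was 5.40, 5.35 and 5.37 against 5.38, 5.25 and 5.34. The other pair of CPEB3 probe sets, dim on every array, was also lower where overexpression was labelled (1.74 against 1.99 at 1555250_a_at and 2.95 against 3.30 at 239765_at). With spike-in centring (described with the scaling) 205773_at stayed lower (-1.26), that pair lost its calls (-0.0708 and -0.17), and 243651_at stood at 0.23 without passing. The call at 1555250_a_at was also lost when any 1 of the 6 arrays was left out (-0.30 to -0.19). Which part of the transcript each probe set reads was not analysed here, so a construct holding only the coding sequence may be missed, and every direction given rests on the labels. Among markers of colon epithelium, the general epithelial genes EPCAM (11.13 against 11.09), KRT8 (9.99 against 9.84) and KRT18 (11.62 against 11.36) were bright in both groups. Of the intestinal genes, CDX2 stood at 4.85 against 4.83, VIL1 at 4.52 against 4.49 and TFF3 at 4.14 against 4.05, and CDH17 (3.65 against 3.39) and LGALS4 (3.60 against 3.33) lay below the median probe set of every array. Of the 12 markers 2 were higher, KRT18 and KRT20 (5.13 against 4.26), and 0 lower, and of 14 fibroblast and endothelial markers 1 was higher and 0 lower (limma, with 4 and 2 higher and 0 lower at an unadjusted p under 0.05). In RNA of whole cultures, fewer cells expressing a gene and less of its mRNA per cell cannot be told apart.

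**Figure D1:**
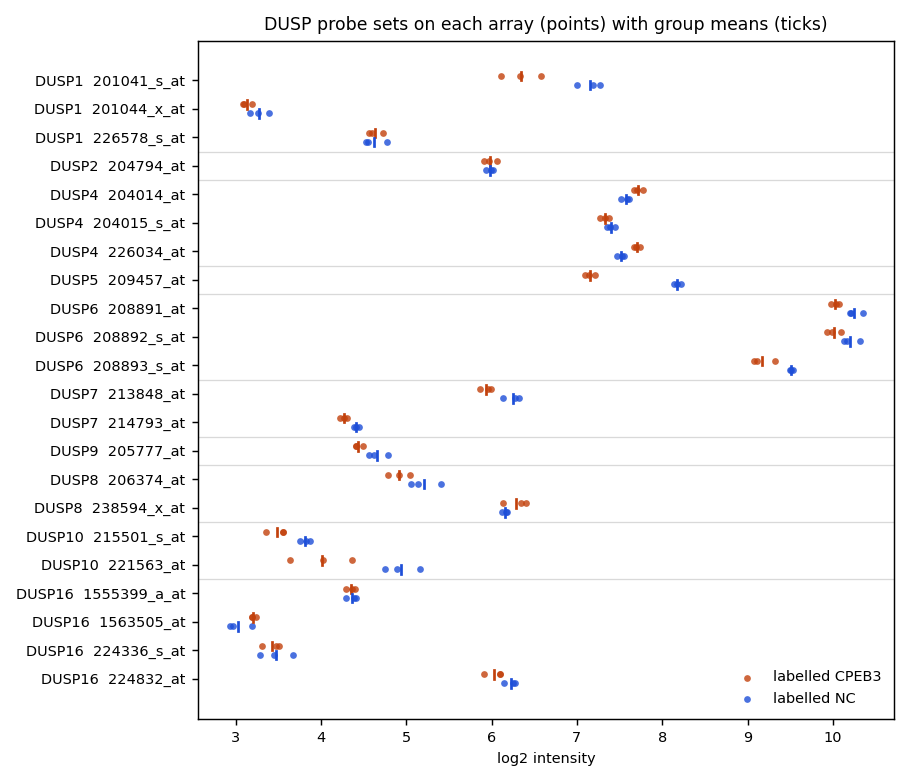
Log2 intensity of the 22 probe sets of the DUSP family on each of the 6 arrays, with arrays labelled CPEB3 in orange, arrays labelled NC in blue and group means as ticks. DUSP5 209457_at, DUSP1 201041_s_at and DUSP10 221563_at show the widest gaps between the groups, and the DUSP2 points overlap; levels of different probe sets are not comparable with each other.

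Promoter sequence is shown for 3 of the genes that moved and for DUSP8, which shares a motif with DUSP1 but had no probe set past the threshold. RefSeq's table (GRCh38.p14) supplied the 250 bases before the annotated start of each gene searched. Of the 10 members 8 were searched, DUSP9 and DUSP10 with 2 starts each. DUSP4 and DUSP5 were left out of the search, so their promoters are not part of this comparison. The motifs searched on both strands were the cyclic AMP response element (CRE) TGACGTCA, its core TGACG, the AP-1 site TGANTCA, the ETS core CCGGAA, the E-box CACGTG, the CArG box and the NF-kB site. A CRE contains the core on both strands, so each CRE also counts as 2 core matches. Capitals mark CRE, CRE core and E-box matches, and all sequences run 5′ to 3′ toward the start of the gene. The genes lie on the minus strand at chr5:172771196-172771445 (DUSP1), chr11:1572272-1572521 (DUSP8), chr12:89352502-89352751 (DUSP6) and chr1:221742090-221742339 (DUSP10, the outer of its 2 starts).
DUSP1: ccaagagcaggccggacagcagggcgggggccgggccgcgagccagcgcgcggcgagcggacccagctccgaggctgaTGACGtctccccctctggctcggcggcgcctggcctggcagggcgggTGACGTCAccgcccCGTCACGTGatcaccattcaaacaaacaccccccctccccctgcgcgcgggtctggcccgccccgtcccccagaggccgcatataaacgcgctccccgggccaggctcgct
DUSP8: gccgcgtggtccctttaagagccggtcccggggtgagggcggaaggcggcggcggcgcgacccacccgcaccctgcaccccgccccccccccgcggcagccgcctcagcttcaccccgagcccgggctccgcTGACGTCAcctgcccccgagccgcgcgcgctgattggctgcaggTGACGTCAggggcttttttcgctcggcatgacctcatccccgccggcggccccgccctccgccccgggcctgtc
DUSP6: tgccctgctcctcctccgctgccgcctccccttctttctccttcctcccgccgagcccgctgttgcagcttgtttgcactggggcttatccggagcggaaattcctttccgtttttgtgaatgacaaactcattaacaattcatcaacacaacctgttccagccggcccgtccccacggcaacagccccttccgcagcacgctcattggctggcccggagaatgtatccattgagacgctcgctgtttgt
DUSP10: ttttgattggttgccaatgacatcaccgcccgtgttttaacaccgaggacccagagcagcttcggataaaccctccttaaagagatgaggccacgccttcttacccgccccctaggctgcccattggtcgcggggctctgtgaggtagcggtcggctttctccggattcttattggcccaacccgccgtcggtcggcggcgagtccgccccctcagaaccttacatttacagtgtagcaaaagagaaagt

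The DUSP1 window held 1 complete CRE, beginning 125 bases before the start, and 4 core matches, at 172, 125, 122 and 111 bases. Its E-box, at 108 bases, overlaps the last of these. DUSP8 held 2 complete CREs, at 118 and 74 bases, and the 4 core matches that these contain. Over all 35114 promoter windows of this length, 1.65% held a complete CRE, 21.2% the core and 6.35% the E-box. The only other match among the members searched was an E-box in the DUSP2 window, 113 bases before the start, and DUSP6, DUSP7, DUSP9, DUSP10 and DUSP16 had no match to any of the 7 motifs in these bases. Of the searched members with a complete CRE, DUSP1 was lower at 1 of 3 probe sets, as described next, and DUSP8 at 0 of 2.

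DUSP5, a nuclear phosphatase selective for ERK, showed the clearest difference. Its single probe set, 209457_at, read 7.21, 7.14 and 7.10 in the arrays labelled CPEB3 and 8.17, 8.13 and 8.22 in those labelled NC. All 3 values of the first group lay far below all 3 of the second, and neither group spread over more than a small part of the gap. DUSP5 fell by 1.02 on the log2 scale (SE 0.07), or 2.03-fold, and the 95% interval reached from -1.17 to -0.88 (adjusted p = 1.11e-05 by limma with Benjamini-Hochberg adjustment). The call was kept in all 16 alternatives that include this probe set (adjusted p from 1.38e-09 to 2.58e-04). The pseudogene DUSP5P1, named after its values were seen, has a dim probe set of its own (1553299_at), which was 2.76 ± 0.24 against 3.39 ± 0.29 (SD, n = 3 each; limma, Benjamini-Hochberg adjusted p = 0.0238). Whether oligonucleotides of either probe set also bind the other transcript was not analysed here.

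DUSP1, the immediate early phosphatase MKP-1 that acts on p38, JNK and ERK, fell at 1 of its 3 probe sets. Probe set 201041_s_at read 6.58, 6.34 and 6.11 in the arrays labelled CPEB3 and 7.01, 7.19 and 7.26 in those labelled NC. The groups did not overlap, and the spread within the arrays labelled CPEB3 (SD 0.24) was wider than for DUSP5. The difference was -0.81 (SE 0.12), or 1.76-fold (95% interval -1.08 to -0.55; adjusted p = 0.00164 by limma with Benjamini-Hochberg adjustment). At the dim probe set 201044_x_at the level was 3.13 ± 0.06 against 3.27 ± 0.11, and at 226578_s_at it was 4.63 ± 0.09 against 4.62 ± 0.13 (SD, n = 3 each). The groups overlapped at both, with 95% intervals of the difference from -0.32 to 0.03 and from -0.18 to 0.20, so the probe sets of DUSP1 did not give 1 answer. As the mean of the 3, DUSP1 was still called, at -0.32 (limma, Benjamini-Hochberg adjusted p = 0.0141, against 1.89e-05 to 0.00834 over the alternatives at 201041_s_at). By suffix (_s_at or _x_at), all 3 DUSP1 probe sets, 201041_s_at among them, can match several transcripts. When such probe sets are removed all 3 drop out, so DUSP1 is not tested there and its call is lost.

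DUSP4, the nuclear phosphatase MKP-2 of ERK and JNK, had point estimates above 0 at 2 of its 3 probe sets, without passing the threshold. At 226034_at it read 7.74, 7.69 and 7.67 in the arrays labelled CPEB3 against 7.47, 7.52 and 7.55, which is 0.19 higher (95% interval 0.04 to 0.33; limma, Benjamini-Hochberg adjusted p = 0.0833). At 204014_at the values were 7.67, 7.70 and 7.77 against 7.51, 7.59 and 7.61, a difference of 0.14 (limma, Benjamini-Hochberg adjusted p = 0.188). The groups lay apart at both of these, higher where CPEB3 was labelled, and overlapped at 204015_s_at, where the difference was -0.07 (95% interval -0.22 to 0.07). The call at 226034_at was made in 4 of 16 alternatives (adjusted p from 0.00793 to 0.196), among them the removal of dim probe sets (adjusted p = 0.0264) and an intensity trend (adjusted p = 0.0153). DUSP2, or PAC-1, a nuclear phosphatase first described in activated lymphocytes, read 6.06, 5.91 and 5.97 against 5.93, 6.02 and 5.995. Its groups overlapped, and the 95% interval of the difference ran from -0.16 to 0.15. Among 13 measured leukocyte markers 1 was higher and 0 lower (limma, with 2 and 0 at an unadjusted p under 0.05), and the sum of their intensities was 206.9 to 222.8 in the arrays labelled CPEB3 and 187.5 to 198.8 in those labelled NC, while PTPRC, which encodes the leukocyte surface protein CD45, was dim (1.62 against 1.48).

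DUSP6, the cytoplasmic ERK phosphatase MKP-3, was bright at all 3 probe sets and had lower values in the arrays labelled CPEB3 at each. Probe set 208893_s_at read 9.32, 9.11 and 9.08 against 9.51, 9.53 and 9.50, a fall of 0.34 on the log2 scale (SE 0.08), or 1.27-fold (limma, Benjamini-Hochberg adjusted p = 0.0167). At 208891_at the values were 10.07, 9.97 and 10.04 against 10.35, 10.21 and 10.20, and at 208892_s_at they were 10.10, 9.93 and 9.99 against 10.31, 10.16 and 10.13. The groups lay apart at all 3, but the differences of -0.22 and -0.19 at the last pair did not pass (limma, Benjamini-Hochberg adjusted p = 0.0638 and 0.138). With the mean of its probe sets DUSP6 was called, at -0.25 (adjusted p = 0.0173, against 0.00247 to 0.695 over the alternatives at 208891_at). The call at 208893_s_at was lost without CPEB3 replicate 2 (-0.31), without CPEB3 replicate 3 (-0.30) and without NC replicate 2 (-0.34), with adjusted p = 0.0687, 0.0621 and 0.0524.

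DUSP7, a further cytoplasmic ERK phosphatase, read 5.96, 5.86 and 5.99 against 6.13, 6.28 and 6.33 at 213848_at. It fell by 0.31 on the log2 scale (SE 0.08), or 1.24-fold (limma, Benjamini-Hochberg adjusted p = 0.0232), and its other probe set, 214793_at, was 4.26 ± 0.05 against 4.41 ± 0.03 (SD, n = 3 each; limma, Benjamini-Hochberg adjusted p = 0.176). The groups lay apart at both. At 213848_at the call was lost without CPEB3 replicate 1 (-0.32), without CPEB3 replicate 2 (-0.27), without NC replicate 2 (-0.29) and without NC replicate 3 (-0.27), with adjusted p from 0.0607 to 0.0920. DUSP9, the third cytoplasmic member, also known as MKP-4, read 4.41, 4.40 and 4.49 against 4.62, 4.78 and 4.57. Its groups lay apart, and they differed by -0.22 (95% interval -0.39 to -0.05; limma, Benjamini-Hochberg adjusted p = 0.0895), and passed without dim probe sets (adjusted p = 0.0332). All 6 probe sets of the cytoplasmic group thus had point estimates below 0, from -0.34 to -0.14, with 2 past the threshold.

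DUSP10, or MKP-5, which acts on JNK and p38, was lower at both of its probe sets. At 221563_at it read 3.63, 4.36 and 4.03 in the arrays labelled CPEB3 and 4.75, 4.89 and 5.16 in those labelled NC. These values had the widest spread among the members (SD 0.36 in the arrays labelled CPEB3), yet the groups did not overlap. The difference was -0.93 (SE 0.17), or 1.90-fold (95% interval -1.30 to -0.55; adjusted p = 0.00543 by limma with Benjamini-Hochberg adjustment), and without 1 array at a time it ran from -1.10 to -0.74. Probe set 215501_s_at, below the median probe set of every array, read 3.55, 3.56 and 3.35 against 3.86, 3.75 and 3.82, a fall of 0.32 on the log2 scale (SE 0.08; limma, Benjamini-Hochberg adjusted p = 0.0214). That call was lost without CPEB3 replicate 3 (-0.26), without NC replicate 1 (-0.30) and without NC replicate 3 (-0.32), with adjusted p = 0.0694, 0.0674 and 0.0556.

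DUSP8 and DUSP16, the other phosphatases of JNK and p38, had no called probe set in the reported fit. DUSP8 read 4.91, 4.79 and 5.04 against 5.14, 5.06 and 5.41 at 206374_at (difference -0.29, 95% interval -0.52 to -0.06; limma, Benjamini-Hochberg adjusted p = 0.0991). That probe set passed as lower in 3 of 16 alternatives (adjusted p from 0.0340 to 0.361), namely without dim probe sets (0.0434), with an intensity trend (0.04996) and with the replicate number as a block (0.0340). At 238594_x_at it read 6.13, 6.40 and 6.34 against 6.12, 6.17 and 6.18 (difference 0.13, 95% interval -0.05 to 0.31). The probe sets of DUSP8 therefore had opposite signs, with groups apart at the first and overlapping at the second. DUSP16, or MKP-7, had differences from -0.19 to 0.17 over its 4 probe sets, of which 2 lay below the median probe set of every array. At the brightest, 224832_at, it read 5.90, 6.10 and 6.10 against 6.14, 6.25 and 6.28, with groups apart (limma, Benjamini-Hochberg adjusted p = 0.149). Without NC replicate 1, 1563505_at passed as higher (0.26).

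**Figure D2:**
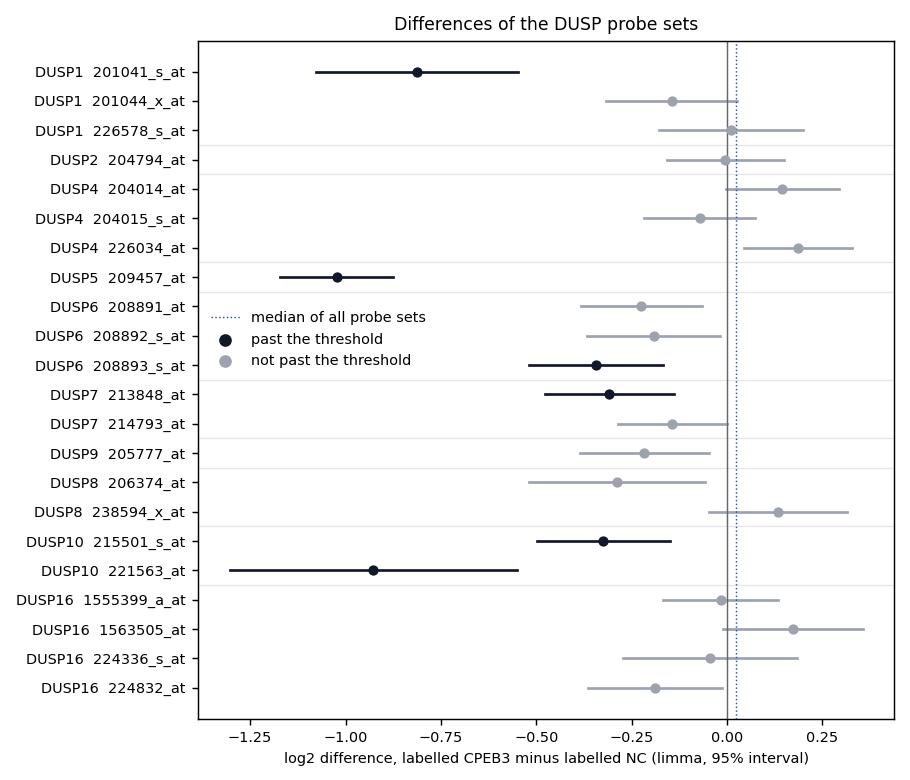
Log2 difference of the 22 DUSP probe sets, arrays labelled CPEB3 minus arrays labelled NC, with 95% intervals from limma; black marks the 6 past the threshold and grey the other 16, and the dotted line is the median of all probe sets (0.02). The 6 called points all lie below 0, from -1.02 to -0.31, and none of the intervals above 0 belongs to a called probe set.

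With each gene represented by its brightest probe set, 4 of the 10 members were lower (DUSP1, DUSP5, DUSP7 and DUSP10) and 0 higher (limma, with 7 lower and 0 higher at an unadjusted p under 0.05). Over all genes so represented 10.5% were lower and 8.32% higher past the adjusted threshold, and no share at the unadjusted level was counted. The median log2 difference of the 10 was -0.22, beside 0.02 for all genes. By location and target, 2 of 4 nuclear genes, 1 of 3 cytoplasmic genes and 1 of 3 genes for JNK and p38 were lower, so each division of the family held both a called and an uncalled gene. With every gene as the mean of its probe sets, 6 of 10 were lower, DUSP6 and DUSP9 (limma, Benjamini-Hochberg adjusted p = 0.0453) joining. The share of all genes lower in that fit was not counted, so the rise has no background to be read against. DUSP9 has 1 probe set, so its difference was unchanged (-0.22).

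The size of the family's shift from 0 rested on the scaling. Hybridization spike-ins, normally added in equal amounts, had a mean log2 difference of -0.18 between the groups. Centring each array on them moved every probe set up by 0.18, turned the split of all calls from 45.6% to 90.3% higher and brought the median of the 22 member probe sets to 0.01. As every probe set moved alike, the family's distance from the median of all probe sets stayed the same. DUSP5 (-0.84), DUSP1 at 201041_s_at (-0.63) and DUSP10 at 221563_at (-0.75) stayed lower past the threshold. The calls of DUSP6 (-0.16), DUSP7 (-0.13) and DUSP10 at 215501_s_at (-0.14) were lost, and 4 probe sets became higher past the threshold, namely DUSP4 at 226034_at (0.37) and 204014_at (0.32), DUSP8 at 238594_x_at (0.31) and DUSP16 at 1563505_at (0.35).

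**Figure D3:**
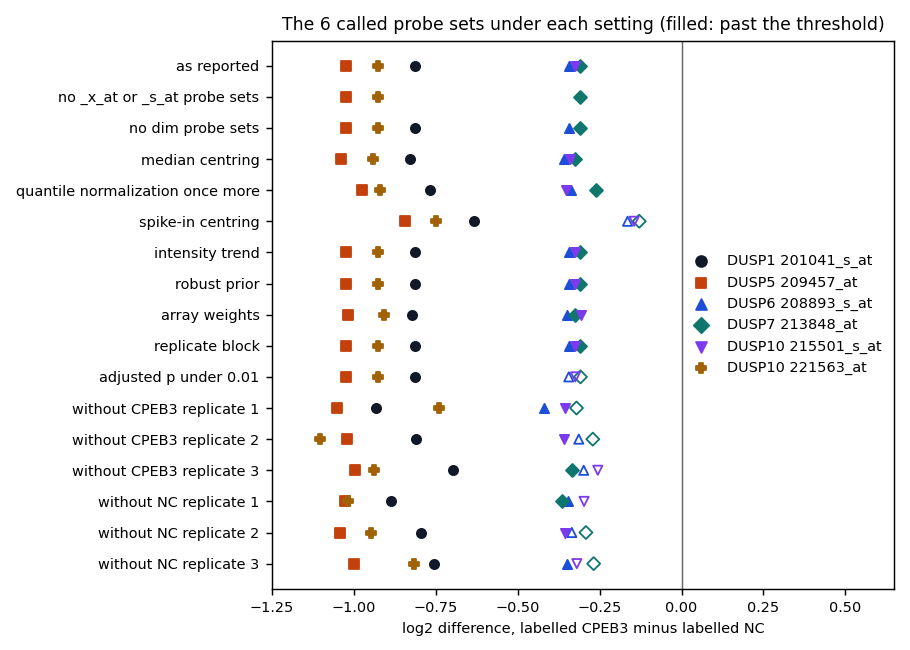
Log2 difference of the 6 called DUSP probe sets (horizontal axis) under the reported fit and the 16 alternatives that keep single probe sets (rows); filled symbols passed the threshold of that setting and open symbols did not, and a probe set that a filter removes has no symbol. DUSP5, DUSP1 and DUSP10 221563_at stayed past the threshold wherever they were tested, with the DUSP1 probe set removed by 1 filter, while DUSP6, DUSP7 and DUSP10 215501_s_at were open with spike-in centring, at the stricter threshold and without several of the arrays.

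Other genes of the MAP kinase pathway give the setting of these differences. Over all genes by their brightest probe set, 10.5% were lower and 8.32% higher. With spike-in centring 90.3% of all called probe sets were higher. Of 15 genes listed as atypical DUSPs, mostly small phosphatases without the MAP kinase binding domain, 5 were higher and 1 lower. Their median log2 difference was 0.10 (7 higher and 0 lower with spike-in centring). DUSP23 (0.41), DUSP28 (0.35) and STYX (0.40), a catalytically inactive relative, rose, and DUSP12 fell by 0.41, with limma Benjamini-Hochberg adjusted p from 0.00222 to 0.0156. The STYX call was lost without CPEB3 replicate 2 (0.40), without CPEB3 replicate 3 (0.34), without NC replicate 2 (0.38) and without NC replicate 3 (0.35), and the DUSP12 call with spike-in centring (-0.23). DUSP28 was 0.53 with spike-in centring. DUSP3 differed by 0.13 (95% interval -0.04 to 0.30) and DUSP14 by -0.10 (95% interval -0.25 to 0.05). DUSP3 passed as higher with spike-in centring (0.31) and when its probe sets were averaged (0.21). Of 10 other phosphatases that act on MAP kinases, 0 passed in limma's test (1 higher and 1 lower at an unadjusted p under 0.05; 3 higher with spike-in centring, 1 lower with genes fitted as a table of their own and 2 lower with the mean of a gene's probe sets).

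Among the substrates, 3 of 12 measured MAP kinases were lower and 1 higher, with a median of 0.02 (1 lower and 5 higher with spike-in centring). MAPK8, which encodes JNK1, fell by 0.59 on the log2 scale (8.35 ± 0.06 to 7.76 ± 0.13, SD, n = 3 each; limma, Benjamini-Hochberg adjusted p = 0.00114). With the mean of its probe sets MAPK8 was still called, at -0.25. MAPK9, which encodes JNK2, had a log2 difference of -0.31 and MAPK7, which encodes ERK5, of -0.28, both past the threshold, while MAPK13, which encodes a p38 kinase, rose by 0.46. The calls of MAPK9 and MAPK7 were lost with spike-in centring (-0.13 and -0.10) and, for MAPK9, with the mean of its probe sets (-0.15). Without single arrays MAPK9 missed the threshold without CPEB3 replicate 1, CPEB3 replicate 2 or NC replicate 2 (-0.30 to -0.27), and MAPK7 without any array but NC replicate 1 (-0.29 to -0.24). MAPK3, which encodes ERK1, differed by 0.16 (95% interval 0.02 to 0.30; limma, Benjamini-Hochberg adjusted p = 0.130). It passed as higher without dim probe sets (0.16), with quantile normalization once more (0.21) and with spike-in centring (0.34). It also passed with every gene as the mean of its probe sets, where its difference was an unchanged 0.16.

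Upstream, 1 of 13 measured genes of the RAS-RAF-MEK cascade was lower, the scaffold KSR1 (-0.34), and 0 were higher (limma, with 2 higher at an unadjusted p under 0.05, 2 with genes fitted as a table of their own and 3 with spike-in centring). KSR1 did not pass with the mean of its probe sets (-0.11) or with spike-in centring (-0.16). MAP2K1, the ERK kinase MEK1, differed by -0.08 (95% interval -0.21 to 0.06). Of 16 MAP3Ks of the stress cascades, 4 were lower and 0 higher (limma, with 6 lower and 0 higher at an unadjusted p under 0.05; 1 lower and 6 higher with spike-in centring). They were the dim MAP3K8 (2.53 against 3.22), TAOK3 (-0.39), MAP3K1 (-0.35) and MAP3K2 (-0.28), and TAOK3, MAP3K1 and MAP3K2 did not pass with the mean of their probe sets (-0.17, -0.17 and -0.13) or with spike-in centring (-0.21, -0.17 and -0.10). When probe sets with the suffix _s_at or _x_at were removed, TAOK3 turned to 0.06, and with the most variable probe set of each gene MAP3K2 did not pass (-0.12). The TAOK3 call was also lost without CPEB3 replicate 1 (-0.37), and that of MAP3K2 without CPEB3 replicate 1 (-0.28), CPEB3 replicate 2 (-0.28) or NC replicate 3 (-0.25).

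Downstream, transcription factors that MAP kinases phosphorylate or induce were lower in 15 of 21 measured members and higher in 1, with a median of -0.55 (13 and 1 with spike-in centring). EGR3 was 5.79-fold lower, EGR1 4.76-fold, ETS1 2.86-fold and FOS 2.85-fold lower. In the arrays labelled CPEB3, EGR3 (3.49 against 6.02) and FOS (3.63 against 5.14) lay below the median probe set. With the mean of its probe sets the log2 difference of ETS1 was -0.91. Genes used to read ERK output, with DUSPs left out, were lower in 9 of 14 and higher in 1, with a median of -0.36 (5 and 1 with spike-in centring). EPHA2, a receptor tyrosine kinase, fell by 0.64, IER3 by 0.58, ETV5 by 0.54 and the RAS-ERK inhibitor SPRY2 by 0.43 on the log2 scale. ETV5 was -0.33 when its probe sets were averaged, and SPRY2 -0.25 with spike-in centring, both still called. The arrays measure mRNA, so neither phosphatase activity nor phosphorylation of ERK, JNK or p38 was measured.

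**Figure D4:**
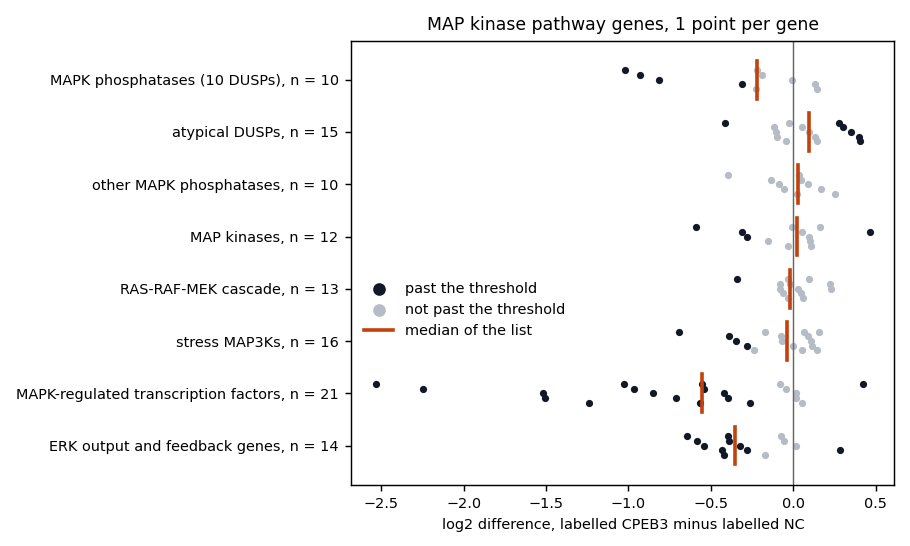
Log2 difference, arrays labelled CPEB3 minus arrays labelled NC, for the 10 DUSP genes and the genes of 7 MAP kinase pathway lists, 1 point per gene by its brightest probe set, black where past the threshold and with the list median as an orange line. The medians are -0.22 for the 10 DUSPs, 0.10 for the atypical DUSPs and -0.55 for the MAPK-regulated transcription factors.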

How the data were processed

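Total RNA of 6 samples was labelled with biotin and hybridised to 1 array each. For each array the authors deposited a normalized, linear intensity of every probe set. The submitters' processing notes name RMA; its version, and how log2 values became linear, were not given in the sources used here. RMA makes the arrays' distributions alike, which hides any change in total RNA. All values were above 0, and log2 was taken with no pseudocount.

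The 62 control probe sets were left out, and 54613 were fitted as 1 table in R 4.3.3 with limma 3.58.1 (functions lmFit and eBayes, group as the only term, two-sided, 4 residual and 5.53 prior degrees of freedom). Benjamini-Hochberg adjustment ran over all of them, with a threshold of 0.05. Groups came from the sample titles. Symbols came from the platform annotation; of 153 list entries, 13 had no single-symbol probe set and were not analysed here. The number of arrays limits the precision. Detection calls were not used, so folds of dim probe sets can be understated.

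Members and lists were chosen with earlier results of these data known. The rule named every member, CPEB3, the 4 largest non-overlapping calls of each list, and a few genes by name, of which MAPK3, MAPK8, MAP2K1, DUSP3 and DUSP14 were analysed; the others are not reported here. The fit was tested on simulated data. There were 19 alternatives. They covered the choice of probe sets, scaling, variance model, replicate block, threshold and each array left out. Figures were drawn with matplotlib 3.10.9.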

Additional observations from a re-analysis of the deposited data

How the results depend on the processing

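The calls of DUSP5, DUSP1 (201041_s_at) and DUSP10 (221563_at) were kept in every alternative that tested them. The cause of the changes below was not tested, except where fewer probe sets or a stricter threshold makes them. Member probe sets past the threshold and lower went from 6 to 3 without _x_at or _s_at probe sets, to 3 with spike-in centring and to 3 at an adjusted p under 0.01, and rose to 8 without dim probe sets and to 9 with an intensity trend. Those higher went from 0 to 1 without dim probe sets, to 1 with quantile normalization once more, to 1 with an intensity trend and to 4 with spike-in centring; without 1 array they were 0 to 1. Member genes higher went from 0 to 2 with spike-in centring. Companion pathway genes went from 8 higher and 33 lower to 26 higher and 20 lower with spike-in centring, and to 4 higher at an adjusted p under 0.01; without 1 array 4 to 7 were higher, 4 without CPEB3 replicate 2 and 5 without CPEB3 replicate 3. Over all probe sets, 3597 were higher and 4294 lower. These were 2146 and 2351 without _x_at or _s_at probe sets, 17876 and 1910 after spike-in centring and 1494 and 2374 at an adjusted p under 0.01. Like the member calls, all calls rose without dim probe sets (4315 higher and 5010 lower, of fewer probe sets). They also rose with an intensity trend (4689 and 5469). Without 1 array 2204 to 2872 were higher, 2204 without CPEB3 replicate 2 and 2295 without CPEB3 replicate 1.

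Signs turned at uncalled values. With spike-in centring these were DUSP1 201044_x_at (0.0343), DUSP2 (0.18), DUSP4 204015_s_at (0.11), DUSP7 214793_at (0.0358), DUSP16 1555399_a_at (0.16) and 224336_s_at (0.14), DUSP14 (0.0806) and MAP2K1 (0.10). DUSP1 226578_s_at turned with median centring (-0.0046) and array weights (-4e-04), and DUSP2 with quantile normalization once more (0.043). As a gene, DUSP8 was -0.0774 by the mean of its probe sets and -0.29 by the most variable or without _x_at probe sets, and TAOK3, called at -0.39, turned to 0.0559 without _s_at probe sets. Without 1 array, DUSP1 226578_s_at ran from -0.0391 to 0.0867, DUSP2 from -0.0433 to 0.0317, and DUSP16 from -0.05 to 0.0132 at 1555399_a_at and -0.14 to 0.0563 at 224336_s_at. With the replicate number as a block, 7 member probe sets were lower, DUSP8 206374_at joining (adjusted p = 0.0340), and 0 higher. Deviations of same-numbered arrays from their group means correlated with r of 0.0065, 0.0012 and 0.0926. Between differently numbered arrays r ran from -0.0904 to 0.0909. With 3 arrays a group these values cannot decide whether same-numbered arrays were handled together, which the labels do not say.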
